A study of Mus musculus with 2 samples.

Results

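The 3' flank of the immunoglobulin heavy chain (Igh) locus is the stretch of mouse chromosome 12 that lies beyond the enhancers at the constant-region end. Its contacts were taken from 5C (chromosome conformation capture carbon copy) libraries, in which fixed chromatin is cut with HindIII and ligated, and the joined ends of chosen fragments are counted with forward and reverse primers. A fragment belonged to the flank when its midpoint fell in the given interval of the mm9 build, below the enhancers. This gave 20 viewpoint fragments, 10 with a forward and 10 with a reverse primer, spanning 111 kb from 114339456 to 114450784. Every forward-by-reverse pair with at least 1 end among them was kept, zeros included, which gave 1960 of 10584 assayed pairs (18.5%). Of these, 100 pairs joined 2 fragments of the flank and 1860 joined the flank to the other 186 fragments. The rule used positions alone and no counts, but it was set with earlier results of these data known.

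The cells were resting B cells from the spleen of C57Bl/6 mice, taken as CD43-negative cells with magnetic beads and left unstimulated. There was 1 group of 2 libraries, described by the submitters as biological replicates. The labels name no transgene, mutant allele or agent, and do not say how many animals gave cells to each library. With 1 group there is no contrast between conditions and no test over samples, so all values here are descriptions. Contact counts hold no marker genes, so the labelled cell type could not be checked. Values are given for replicate 1 and replicate 2 in that order.

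In mature B cells the Igh constant-region genes, which encode the antibody classes, lie between the intronic enhancer Eμ next to the JH segments and a cluster of enhancers past Igha called the 3' regulatory region. Beyond that cluster come binding sites for CTCF, a DNA-binding protein at which loops extruded by cohesin tend to stop, and these sites mark the 3' end of the locus. In the RefSeq gene table of assembly GRCm38 the protein-coding genes next below Igha are Tmem121, Tedc1, Crip1, Gm30599 and Crip2. That table is of another build, so it gives the order of genes only, and no fragment is assigned to a gene. Partner intervals are named here for the parts of the locus around them, from general knowledge of its layout in mm9. Their bounds were not read from an annotation and may be off by a fragment or more. No fragment sequence is printed, since no genome of this build was used here.

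The libraries held 16067416 and 15096402 counts. Flank pairs held 2886305 of these in replicate 1 (17.96%, 95% Wilson interval 17.945% to 17.98%) and 2538952 in replicate 2 (16.82%, 16.80% to 16.84%), intervals that cover counting error only. Their median count was 124.0 and 116.0, and 9 and 22 pairs were at 0, 3 of them in both libraries. In 14 flank pairs both fragments end at the same HindIII cut, so that a ligated end need not reflect a contact. These 14 held 58.7% and 59.4% of the flank counts. Without such pairs the flank held 18.8% and 17.9% of all counts. Across flank pairs, which share primers and are not independent, Spearman's rho between the replicates was 0.89 for counts and 0.85 after distance was taken out. The median fold difference between the replicates was 1.28 among the 924 flank pairs with at least 100 counts in both.

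The viewpoint fragments differed widely in their counts with the rest of the locus, and the 3 fragments at the upper edge, towards the enhancers, were the lowest. These counts were not corrected for differences between primers. With partners outside the flank, R15 (114395287 to 114399192) had a median count of 308 and 319.5, the highest in both libraries. F3 (114341252 to 114353715) followed with 218.5 and 227.5, and R10 (114375778 to 114387142) with 202 and 220. Of the 17 fragments up to R22 (114434637 to 114441221), the lowest medians were 81 in replicate 1, for F14, and 78.5 in replicate 2, for R1. The last 3 fragments lay below this range: F25 (114449888 to 114450784) had 30.5 and 26, F23 (114441222 to 114447060) had 10 and 5.5, and R24 (114447061 to 114449887) had 9.5 and 7. By this median over all outside partners, both libraries placed these 3 fragments below all others, with no overlap. The gap depended on the partner. With partners from the 3' regulatory region to JH, the distance-corrected level of F25 was 0.80 and 0.91. That was above R1 (0.48 and 0.55) and R7 (0.38 and 0.38), but below most others. With VH partners, described below, F25 had -1.53 and -2.08. F23 had -0.75 and -0.24 against -3.10 and -3.90, and R24 -2.43 and -2.54 against -2.89 and -3.34. By median count the remaining fragments lay between R15 and these 3. R17 (114400224 to 114404464) had 196.5 and 185, R12 (114389459 to 114393671) had 153.5 and 135, F18 (114404465 to 114408145) had 155 and 135, and R4 (114353716 to 114363543) had 147.5 and 157. F20 (114409003 to 114420752), F6 (114364563 to 114367389), R19 (114408146 to 114409002), F16 (114399193 to 114400223) and R22 had medians between 80.5 and 135.5 over both libraries. R7 (114367390 to 114368951), F11 (114387143 to 114389458), F9 (114372427 to 114375777), F14 (114394005 to 114395286) and R1 (114339456 to 114341053) all lay under 100 counts in both. Across the 20 fragments, length and the distance-corrected level with outside partners had a Spearman's rho of 0.49 and 0.47, and of 0.59 and 0.56 without the 3 fragments at the edge. Distance from the edge and level had a rho of 0.39 and 0.42, and of 0.0098 and 0.069 without those 3. The fall towards the enhancers thus rested on F23, R24 and F25. These 3 were also low in site-sharing pairs, where a ligated end need not reflect a contact. F23-R22 had 1304 and 755 counts, against a median of 71996 and 63121.5 over such flank pairs, and the pairs with R24 are given below. F20, not among the 3, had 2558 and 2518 counts in its site-sharing pair. Whether the low counts reflect contacts or primers was not tested.

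**Figure D1:**
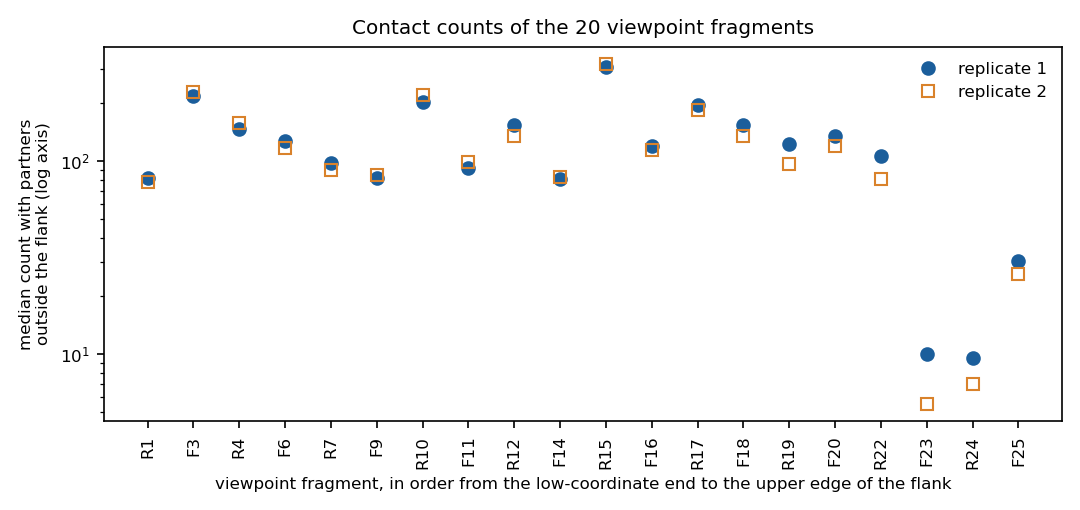
Median count of each viewpoint fragment with partners outside the flank (log axis), with fragments in order along the chromosome from the low-coordinate end. Circles are replicate 1 and squares replicate 2. F23, R24 and F25 at the right lie at or below 30.5 counts, below the other 17 fragments.

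R24 stood apart in a further way. Nearly all of its counts, 98.8% and 98.8%, came from 1 pair, F28-R24, which joins it to the first fragment past the edge, F28 (114465909 to 114474052). That pair had 374831 and 315936 counts at 21.5 kb, which is 37.5 ± 1.90 times the count expected at its distance (SD, n = 2), and it alone made up 12.99% and 12.44% of the flank counts. The highest count of R24 with any other fragment was 461 in replicate 1 and 399 in replicate 2. Its median over the other 97 forward fragments was 11 and 12. R24 shares a HindIII site with F23 on 1 side and with F25 on the other. The pair F23-R24 had only 77 and 43 counts and F25-R24 had 244 and 106, where the median of the 14 site-sharing flank pairs was 71996 and 63121.5. F28 itself was not low elsewhere, with 178934 and 169214 counts with its site-sharing neighbour R29 and between 832 and 4337 counts in replicate 1 with the other 9 reverse fragments of the flank. Between F25 and F28 lies a gap of 15.1 kb (114450785 to 114465908) with no fragment in the matrices. The cause of the R24 pattern was not tested. Whether the primer sits at its listed position could not be checked from the counts, and the distance and the ratio to the expected count of F28-R24 hold only if it does.

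Over the whole range of distances, flank counts had about the same slope as other counts. The slope of log10 mean count on log10 distance was -1.01 and -0.99 for flank pairs and -0.99 and -0.98 for pairs outside the flank set. Without site-sharing pairs the slopes were -0.84 and -0.81 against -0.80 and -0.76. At matched distances up to 300 kb, flank medians were 1.54 to 2.47 times those of other pairs. Between 50 and 100 kb the median was 839.5 and 710.5 for 70 flank pairs, against 395 and 344 for 293 other pairs, a ratio of 2.13 and 2.07. Between 100 and 200 kb the ratio was 2.47 and 2.42. Between 300 and 500 kb it was 1.08 and 1.25, and between 800 and 1200 kb 0.858 and 1.07, so there the levels were closer.

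At longer distances the medians no longer fell steadily and the ratio was uneven. Flank medians were 63.5 and 73.5 between 800 and 1200 kb and 121 and 119 beyond 2800 kb. Those of other pairs were 74 and 69, and 258.5 and 272. The ratio was 2.12 and 1.99 between 2000 and 2400 kb, 0.742 and 0.731 between 2400 and 2800 kb, and 0.468 and 0.438 beyond 2800 kb. Flank pairs make up 72.2% of all pairs in that last window, and 138 of them lie farther apart than the longest other pair (2878 kb). The expected count there is therefore set mostly by the flank itself.

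**Figure D2:**
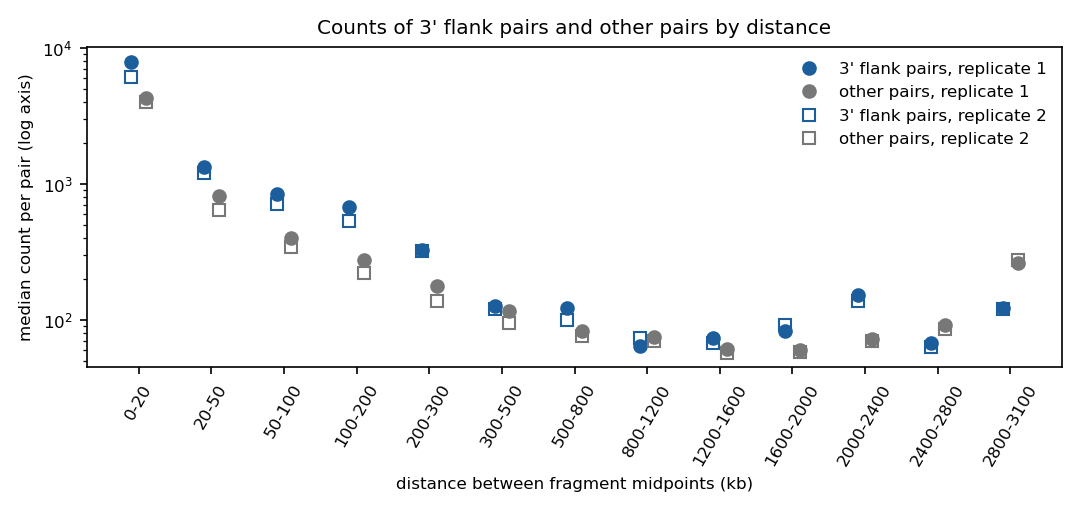
Median count per pair (log axis) for flank pairs (blue) and all other pairs (grey) in 13 windows of distance between fragment midpoints. Filled circles are replicate 1 and open squares replicate 2. Flank medians lie above the others in both libraries up to 800 kb and between 1200 and 2400 kb, and below them beyond 2400 kb.

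To describe contacts by partner, each count was taken as log2(count + 1) minus its smoothed value at the same distance over all pairs of the library. A value of 0 is the smoothed mean log2 count at that distance and 1 is a doubling of it. The median over all assayed pairs was 0.27 and 0.32, so more pairs lay above 0 than below it. Over all flank pairs the median was 0.55 and 0.67, and over all other pairs 0.20 and 0.23. Of the 14 partner intervals, 12 had a median above 0 in both libraries. Without F23, R24 and F25 the median of flank pairs was 0.84 and 13 intervals lay above 0.

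Within the flank itself the median was 0.81 and 0.91 over 100 pairs, of which 71.0% and 69.0% lay above 0. Without F23, R24 and F25 it was 1.36 and 1.35.

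The highest levels lay on the constant-region side of the locus, although a VH interval described below (1.17 and 1.10) exceeded some of these in replicate 1. The interval of the 3' regulatory region (114465909 to 114493851), the nearest outside the flank, had a median of 1.43 and 1.74 over 50 pairs. The interval around Igha and Ighe (114493852 to 114522181), the genes of IgA and IgE, had 1.11 and 1.32. The interval around Ighg2c and Ighg2b (114522182 to 114547720) had 1.47 and 1.72, which is 2.76 and 3.29 times the smoothed level. That around Ighg1 and Ighg3 (114551907 to 114617981) had 1.03 and 1.13. These 4 genes encode IgG subclasses. Around Ighd and Ighm (114638362 to 114662158), the genes for the IgD and IgM that resting B cells carry, the median was 1.43 and 1.59. Of the 90 pairs there 86.7% and 85.6% lay above 0. The flank pairs with these intervals spanned medians of 86.8 to 258 kb, so the distance-corrected level was above 0 over the whole constant region. With additive primer effects removed it was below 0 in 4 of these 5 intervals: -1.11 and -0.96 for the 3' regulatory region, -1.02 and -0.94 for Igha and Ighe, -0.59 and -0.56 for Ighg2c and Ighg2b, and -0.04 and -0.19 for Ighg1 and Ighg3. Before that removal, the interval of Ighg1 and Ighg3 was the lowest of these 5 in both libraries and that of Igha and Ighe the next. The order of the other 3 then differed between the libraries. After the removal, the 3' regulatory region was the lowest in both libraries, and Ighg1 and Ighg3 the highest of the 4 below 0.

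The level dropped where the D segments begin. The interval around Eμ and JH (114662159 to 114670119) had 0.64 and 1.32, and here the libraries differed most among the intervals. The next interval, around the D cluster and IGCR1 (114670120 to 114794187), had -0.62 and -0.27, although its median distance of 317 kb is only slightly longer than the 270 kb of the interval before it. Without F23, R24 and F25 the D interval had -0.35 and 0.15, so its sign then differed between the libraries. It stayed below the interval of Eμ and JH, which then had 0.76 and 1.39. IGCR1 is an intergenic control region with CTCF sites that separates the D segments from the VH genes. Median counts went from 441.5 and 365 around Ighd and Ighm to 84.5 and 91 in the D interval. Each of the 20 viewpoint fragments had a higher median with the partners from the 3' regulatory region to JH than with the D interval in both libraries. Among single viewpoints R15 showed the smallest drop in replicate 2, 2.68 against 2.46. R19 had 0.80 and 1.07 with the partners up to JH, but -1.08 and -0.54 with the D interval.

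The VH genes showed raised and lowered stretches rather than a steady fall. The interval of the proximal VH genes (114809751 to 115243663), which lie nearest to the D segments, had 0.75 and 0.74 over 200 pairs. The intermediate VH interval (115259493 to 115885590) had 0.36 and 0.47 over 570 pairs, close to the 0.27 and 0.32 of all assayed pairs. Of the 570 pairs 58.1% and 61.2% lay above 0. In the distal VH part, the first stretch (115938466 to 116337130) had 0.51 and 0.72 and the second (116356077 to 116781489) had 1.17 and 1.10. The second stretch lies 2174 kb away at the median, yet its median count of 140 and 127 was above that of the intermediate VH interval, 67 and 69.5. The partners of that stretch were also high with fragments outside the flank, at 0.68 and 0.70. With additive primer effects removed its median was 0.062 and 0.012, and without pairs under 10 counts it was 0.62 as a mean of both libraries. The third stretch (116809861 to 117190694) had -0.20 and -0.26, and without F23, R24 and F25 it had 0.019 and 0.083. The 5' flank past the VH genes (117265258 to 117350186) had 0.28 and 0.28, near the median of all assayed pairs, 0.27 and 0.32. Without F23, R24 and F25 this interval had 0.35 and 0.51. Only 32 of its 170 pairs lie within the distances of pairs outside the flank set. Most of these 32 have F23, R24 or F25, the low fragments nearest to the upper edge, as their flank end, so they do not stand for the whole interval. Over those 32 the median was -1.63 and -1.18 with the expected level from all pairs, and -1.76 and -1.34 with that from pairs outside the flank set. At a smoothing span of 0.1 the value over all 170 pairs was -0.14, as a mean of both libraries, so its sign is not settled.

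**Figure D3:**
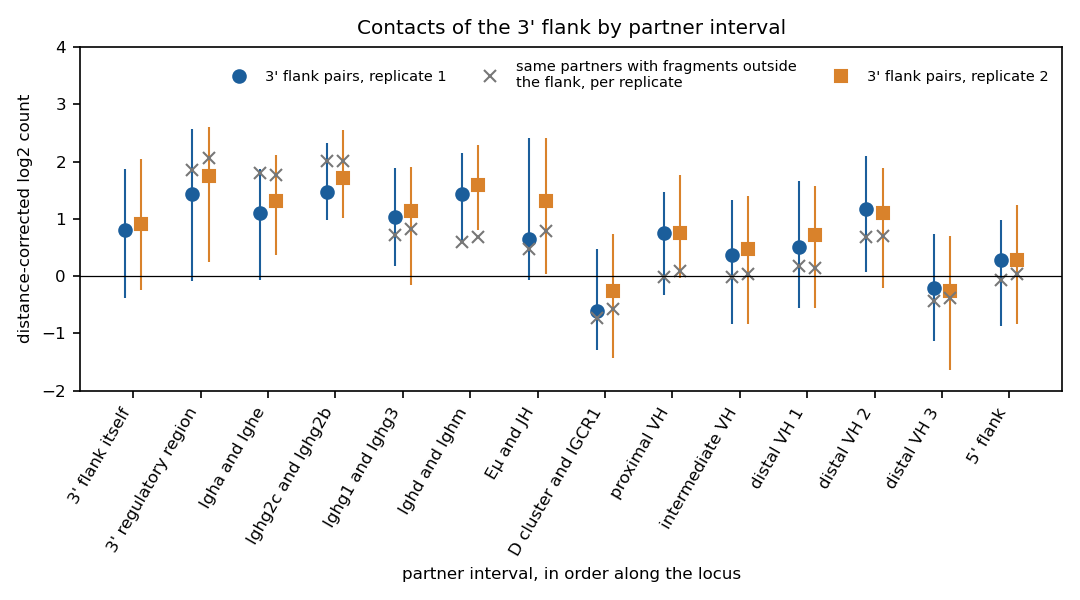
Median distance-corrected log2 count of flank pairs for 14 partner intervals in order along the locus, with replicate 1 as blue circles and replicate 2 as orange squares; vertical lines run from the lower to the upper quartile over pairs. Grey crosses give the median of the same partners with fragments outside the flank. The constant-region intervals lie above 1 and, with all viewpoint fragments included, the D interval lies below 0.

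Part of this profile was shared with fragments outside the flank. Whether the shared part reflects contacts or primers was not tested. When the same partner fragments were paired with fragments outside the flank, the medians were 1.85 and 2.07 for the 3' regulatory region, 0.60 and 0.68 for Ighd and Ighm and -0.73 and -0.58 for the D interval. The low level of the D interval was thus found with other fragments too. Set against these values, the flank was lower with the 3 intervals nearest to it, and much of this gap rested on F23, R24 and F25. The difference was -0.41 and -0.33 for the 3' regulatory region, -0.70 and -0.45 for Igha and Ighe, and -0.54 and -0.30 for Ighg2c and Ighg2b. Without F23, R24 and F25 these differences were -0.14 and -0.0045, -0.40 and -0.20, and -0.35 and -0.11. The flank was higher with Ighd and Ighm, by 0.84 and 0.91, and with the proximal VH interval, by 0.76 and 0.65. For the D interval the difference was 0.11 and 0.31. Without F23, R24 and F25 it was 0.38 and 0.73 for the D interval. It was then 1.04 and 0.95 for Ighd and Ighm, and 0.88 and 0.86 for the proximal VH interval.

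By fragment, all 9 partner fragments around Ighd and Ighm were higher with the flank than with other fragments in both libraries. All 4 fragments around Ighg2c and Ighg2b were lower. Over the whole locus 128 of 186 partner fragments were higher with the flank in both libraries and 35 were lower. Levels with the flank and with other fragments had a Spearman's rho of 0.87 and 0.85 across the 186 partner fragments, which share primers and libraries in both measures. When an additive effect per primer was taken out, the median, given above for the intervals below Ighd, was 0.29 and 0.17 for Ighd and Ighm, 0.43 and 0.43 for the proximal VH interval and 0.0033 and 0.10 for the D interval. That removal takes out any contact a fragment has with all others along with differences between primers.

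The level of single partner fragments spanned -3.02 to 3.50 and, in the second library, -2.27 to 3.94. The highest in both libraries was R81 (114664824 to 114667095) in the interval of Eμ and JH, with a median count of 1698.5 and 1874 over its 10 flank pairs and a level of 3.50 and 3.94. Its level with fragments outside the flank was 2.75 and 3.14. Its neighbours F80 and F82 had 1.06 and 1.32, and 0.26 and 0.23, but were paired with the reverse viewpoint fragments and R81 with the forward ones. The nearest reverse fragments, R79 and R83, had -0.18 and 0.015, and 0.88 and 1.49. None of these neighbours shared the high value. Next by the mean of both libraries came F54 (114594537 to 114601396) in the interval of Ighg1 and Ighg3, with 2.48 and 2.92, and R33 (114486613 to 114491122) in the 3' regulatory region, with 2.66 and 2.69. R33 was higher with other fragments, at 3.36 and 3.42. In the distal VH part F611 (116559256 to 116561326) reached 2.45 and 2.63, with a median of 338 and 358 counts at 2105 kb past the upper edge. The lowest fragment by the mean was R528 (116286772 to 116293346), with -3.02 and -2.26 and a median of 6.5 and 11 counts.

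**Figure D4:**
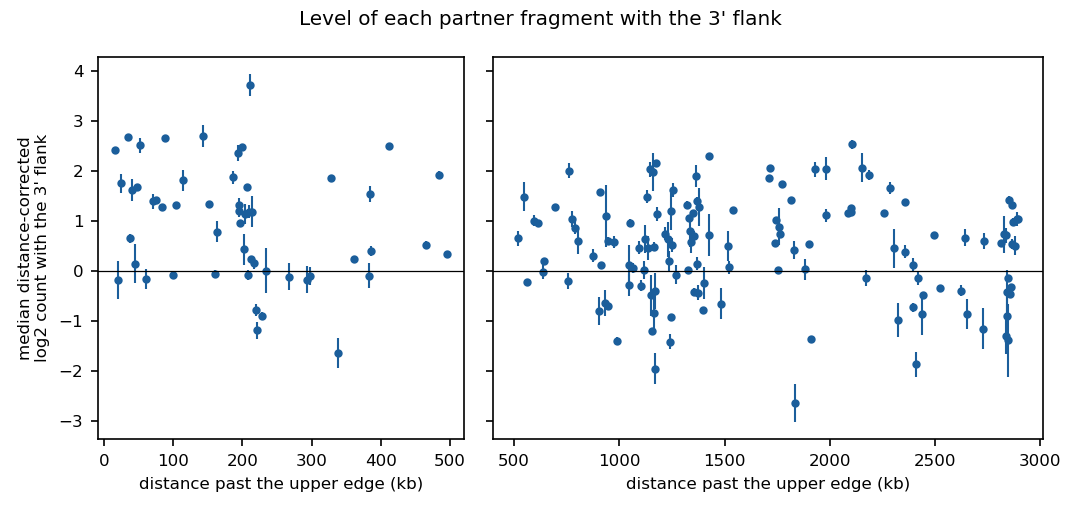
Median distance-corrected log2 count of each of the 186 partner fragments with the flank, against its distance past the upper edge of the flank; the left panel covers the first 500 kb and the right panel the rest. Points are the mean of both libraries and lines join replicate 1 and replicate 2. R81, at 211 kb, is the highest point, and R528, at 1835 kb, the lowest.

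Whether contacts across the upper edge were higher or lower than those inside the flank depended on the distance and on the 3 low fragments. Between 50 and 80 kb the median level was 0.79 and 0.87 for 18 pairs within the flank, and 0.22 and 0.51 for 23 pairs across the edge. Without F23, R24 and F25 these were 1.02 and 1.09 for 9 pairs and 1.20 and 1.37 for 14 pairs. Pairs outside the flank set had 0.0084 and 0.26 at this distance. Between 80 and 110 kb the order was the opposite. The median was -0.84 and -1.28 for 7 pairs within the flank against 1.29 and 1.49 for 42 across the edge, and without the 3 fragments 2.84 and 3.16 for the 1 pair left within against 1.61 and 1.86 for 36 across. Between 20 and 50 kb it was 0.94 and 0.89 for 40 pairs within against 0.12 and 0.33 for 10 across, of which only 2 remained without the 3 fragments. No test was made.

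A pair was called when its count exceeded the smoothed count at its distance by 2 or more smoothed standard deviations (z) in both libraries. The submitters count interactions found in both replicates; the z threshold was set for this work. This held for 7 of the 1960 flank pairs (0.357%), while 1.45% of all assayed pairs were called. The flank thus had a higher typical level than other pairs and a smaller share of single pairs far above their distance. On the log2 scale 4 flank pairs were called (0.204%, against 0.671% of all pairs), and with additive primer effects removed 3 were (0.153%, against 0.17%), so there the shares were near each other.

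The flank share lay below that of all pairs under the other settings too. It was 0.308% against 1.46% without site-sharing pairs and 0.33% against 1.41% without pairs under 10 counts. It was 0.663% against 1.83% at a smoothing span of 0.1, 0.306% against 1.12% at 0.4, and 0.22% against 1.24% with the expected count taken from pairs outside the flank set. By threshold it was 0.816% against 2.29% at a z of 1.5 and 0.255% against 0.652% at a z of 3. Replicate 1 alone had 14 flank pairs at a z of 2 (0.714%, against 2.12%) and replicate 2 had 13 (0.663%, against 1.88%).

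Of the 7 called pairs, 2 reached the far end of the locus. F18-R831 joined F18 to R831 in the 5' flank (117305833 to 117307899), 2.90 Mb away. It had 5798 and 4260 counts, and the 8 pairs of the fragments next to these had between 36 and 209 counts in replicate 1 and between 27 and 149 in replicate 2. The high count was thus confined, among these 9 pairs, to a single one. F3-R845, to R845 (117334454 to 117337990), had 1633 and 2352 counts at 2.99 Mb, 9.85 ± 2.16 times the expected count (SD, n = 2). Its 5 neighbours reached 790 and 483 counts at most.

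Both called pairs with the proximal VH interval began at F16. F16-R208, to R208 (115148612 to 115152740), had 2303 and 2095 counts at 751 kb, and its 8 neighbours had at most 167 and 442. F16-R235, to R235 (115225314 to 115233376), had 718 and 965 counts at 830 kb, 5.96 ± 1.41 times the expected count.

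F18-R81 joined the flank to the fragment R81 in the interval of Eμ and JH, 260 kb away, with 2573 and 3594 counts (7.40 ± 2.21 times). Here the neighbours were raised too. F16-R81 had 1429 and 1864 counts and F20-R81 had 1500 and 1065, so R81 was high with adjacent viewpoints, as it was with fragments elsewhere. After iterative correction over primers without site-sharing pairs its z was -0.15 and -0.034. The remaining called pairs were F28-R24, described above, and F16-R15, whose fragments share a HindIII site and which had the most counts of all flank pairs, 765144 and 720295. Next after these by count came F6-R7, also site-sharing, with 278144 and 228990 counts and a z of 0.98 and 0.72.

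Only F18-R831 and F28-R24 among the 7 were also called with additive primer effects removed. The other pair called then, F436-R1, was not among the 7. Iterative correction without site-sharing pairs called 19 flank pairs (0.976%, against 1.23% of all pairs tested), of which 4 were among the 7: F18-R831, F16-R208, F16-R235 and F28-R24. With site-sharing pairs kept, 17 were called (0.867%, against 1.37%), 2 of them among the 7. Of the 15 pairs added by the correction without them, the highest was F436-R1 at 1543 kb, with 681 and 708 counts and a z of 15.7 and 17.5. Of the 19, 8 lay in the intermediate VH interval, which holds 29.1% of the flank pairs.

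The dip at the D interval was also seen from the enhancer interval next to the flank, at higher levels throughout. Seen from the interval of the 3' regulatory region, which holds 5 fragments and 514 pairs, the medians were 3.70 and 4.14 with Ighd and Ighm, 1.20 and 1.78 with the D interval, 2.19 and 2.34 with the proximal VH interval and 2.37 and 2.24 with the second distal VH stretch. The D interval was lower than the intervals on both its sides from this viewpoint, as it was from the flank, and each level was above that of the flank in both libraries. Of the pairs of the 3' regulatory region interval 47 (9.14%) were called, 1 of which, F28-R24, is also a flank pair. The 5' flank, at the other end of the assayed interval with 17 fragments and 1674 pairs, had a median of -0.02 and 0.06 over all its pairs and 14 called pairs (0.836%), of which F18-R831 and F3-R845 are also flank pairs. Its median was 0.35 and 0.18 with Ighd and Ighm and -0.98 and -1.09 with the D interval. With the 5' flank as partner, the 3' regulatory region interval had a median count of 240 and 289 and the 3' flank 121.5 and 119.5, at median distances of 2828 and 2915 kb. These differences have no test, since fragments of 1 interval share a library and primers are not replicates.

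**Figure D5:**
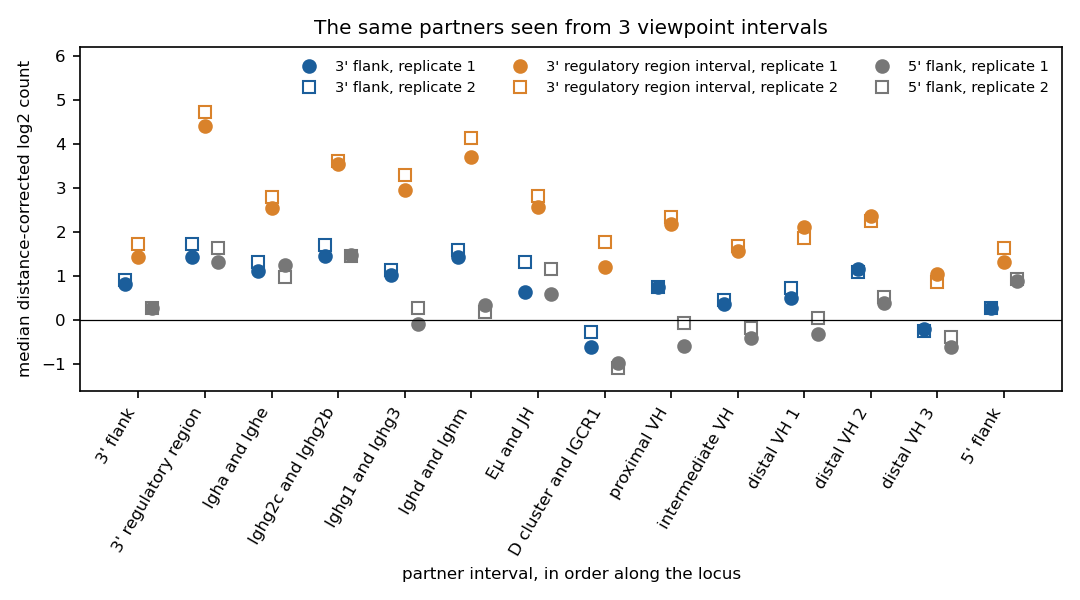
Median distance-corrected log2 count with each partner interval, from the 3' flank (blue), the interval of the 3' regulatory region (orange) and the 5' flank (grey). Filled circles are replicate 1 and open squares replicate 2. From all 3 viewpoints the D interval lies below the interval of Eμ and JH before it, and the 3' regulatory region lies above the 3' flank with every partner.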

How the data were processed

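Both libraries were 5C matrices of resting splenic B cells. The deposited values are counts of ligation products per forward-by-reverse primer pair, made with the my5C tool with a step named transpurge, per the file headers. Novoalign and mm9 are named in the submitters' processing notes. The sources used here give no versions, filters or read settings. No correction for single fragments was visible in the counts, and reads carried no stated molecular identifiers.

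For each library, counts were fitted on log10 midpoint distance by LOWESS over all 10584 pairs (span 0.2, no robustness steps, statsmodels 0.14.6), and z was the residual over the root of the smoothed squared residual. The distance-corrected log2 count used log2(count + 1), with a pseudocount of 1. Additive primer effects were removed by least squares, and iterative correction ran 100 rounds. The functions were tested on simulated counts.

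The members, intervals and quantities were chosen with earlier results of these data known. All 20 viewpoint fragments, all called flank pairs (up to 15) and the 3 flank pairs with the highest counts were to be named. Other pairs and partner fragments were named after their values were seen. Alternatives covered the log scale, primer correction, the span, the source of the expected level, low and site-sharing pairs, the z threshold, bins and each replicate alone. Pairs in the gene desert on chromosome 5 were not analysed here.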

Additional observations from a re-analysis of the deposited data

How the results depend on the processing

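The 7 called flank pairs became 4 on the log2 scale, 3 with additive primer effects removed, 19 after iterative correction without site-sharing pairs and 17 with them, 13 at a LOWESS span of 0.1, 4 with the expected level from pairs outside the flank set and 16 at a z of 1.5, and numbered 13 to 14 in single replicates. Under the other 5 alternatives they numbered 5 or 6. The last expectation gives no value for F18-R831 and F3-R845, which are longer than any other pair. The median level of flank pairs, 0.61 over both libraries, was 0.44 with a pseudocount of 5, 0.23 without pairs under 10 counts and 0.84 without F23, R24 and F25, and 0.55 to 0.67 in single replicates. Flank counts decayed with a slope of -1.002 over both libraries (-1.01 to -0.99 by replicate), which became -0.88 when 20 bins were used, -0.82 when site-sharing pairs were left out and -0.68 when log10 counts were averaged. The number of intervals above 0 stayed between 8 and 13, of 14 or, with intervals of 250 kb, of 13.

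With additive primer effects removed, the sign turned for the 3' regulatory region (-1.03), Igha and Ighe (-0.98), Ighg2c and Ighg2b (-0.57), Ighg1 and Ighg3 (-0.12), the D interval (0.052) and the 5' flank (-0.19). The 5' flank also turned at a LOWESS span of 0.1 (-0.14) and with the expected level from pairs outside the flank set (-1.55, over the 32 pairs that this gives a value). The last turn came with the loss of 138 pairs, since the same 32 pairs had -1.63 and -1.18 with the expected level from all pairs. The sign also turned for the intermediate VH interval without pairs under 10 counts (-0.037) and for the third distal VH stretch without F23, R24 and F25 (0.051). The mean z of F18-R81 turned after iterative correction without site-sharing pairs (-0.092) and with them (-0.45). The cause was not tested. Leaving out F23, R24 and F25 and iterative correction with site-sharing pairs were chosen after seeing the data. No paired analysis was possible because there is 1 group. At this depth 3 flank pairs had a count of 0 in both libraries, so their level rests on the pseudocount alone.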
